A study of Mus musculus with 20 samples.

Results

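The proteasome genes of MC38 tumours were described across 20 RNA libraries. MC38 is a mouse colon adenocarcinoma line, and the tumours were grown under the skin. Vehicle-treated tumours gave 10 libraries (Control), and tumours with ATBx applied around them, the peri-tumoral group (P.T.ATBx), gave the other 10. The labels neither spell out ATBx nor name an agent, dose, schedule, mouse strain or age. Whether every library is a separate mouse is not stated, and the p-values thus reflect only sample-to-sample spread, some of which could be technical. The members were the rows of the deposited table whose symbol begins with Psm, a letter from a to g and a digit, 49 of 23402 rows. Within them, Psmb8, Psmb9, Psmb10, Psme1 and Psme2 were set against the other 44. The title of the study concerns tumour microbial burden and interferon signalling, so the comparison asks whether the interferon-responsive part of the proteasome differed after local ATBx.

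The proteasome degrades proteins tagged with ubiquitin. Its 20S core is a barrel of alpha and beta rings, with the protease sites on the beta subunits encoded by Psmb5, Psmb6 and Psmb7. The 19S cap, built from Psmc ATPases and Psmd subunits, recognises, unfolds and admits substrates. Interferon gamma induces Psmb8, Psmb9 and Psmb10, whose products replace the constitutive catalytic subunits in newly assembled cores. This form, the immunoproteasome, is also present in resting leukocytes and changes which peptides are made for MHC class I. Psme1 and Psme2 encode PA28 alpha and beta, an interferon-induced cap that speeds release of short peptides.

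Levels are in FPKM, a fragment count per length of gene and per size of library, and read totals are unknown. The labels call the cells cancer cells, and the RNA also held leukocyte, fibroblast and endothelial transcripts. The 8 colon epithelial markers summed to 4.31 to 179 FPKM in Control and 12.2 to 53.0 in P.T.ATBx. Of these, Krt19 ran from 0.428 to 64.6 over all libraries, Krt18 from 0.335 to 53.7, Krt8 from 0.125 to 44.8, Epcam from 0.297 to 10.6 and Cdh1 from 1.99 to 4.6, while Krt20 reached 0.319 and Vil1 0.204 at most and Cdx2 was listed at 0 in all. The summed FPKM of 9 leukocyte markers ran from 161 to 255 in Control and from 137 to 257 in P.T.ATBx, and that of 5 adipocyte markers from 49.4 to 1440 and from 69.2 to 409. Fibroblast markers summed to 2620 to 3570 FPKM and 2430 to 3740 (1 of 7 passed, Dcn, lower in P.T.ATBx), endothelial markers to 52.0 to 72.6 and 51.9 to 68.1, keratinocyte markers to 1.44 to 8.42 and 1.75 to 8.96, and muscle markers to 0.798 to 70.9 and 1.2 to 42.0. In such bulk RNA, fewer cells of a type and less RNA per cell cannot be told apart. Control 1, Control 3, P.T.ATBx 1 and P.T.ATBx 4 lay farthest from the rest in overall composition, and results are given without them where that changes what is stated.

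Of the 5 immunoproteasome genes, 4 lie in pairs on a chromosome. On chromosome 17 (GRCm38, the build also called mm10), Psmb9 spans 34182030 to 34187330, Tap1 34187556 to 34197225 and Psmb8 34198195 to 34201454, with Tap2 at 34204479 to 34216321. Psme1 (55578494 to 55581527) and Psme2 (55587440 to 55591101) are neighbours on chromosome 14, and Psmb10 is on chromosome 8. Psmb9 and Tap1, which encodes a chain of the peptide transporter of MHC class I, point away from each other, and their starts are 226 bases apart. The stretch between these starts is shown as the shared upstream region of the pair, beside the 250 bases before the start of Psmb8 and, for the constitutive subunit that Psmb8 replaces, of Psmb5. The sequences are RefSeq's (GRCm38.p6), 5′ to 3′ on the strand of the named Psmb gene, and capitals mark matches to the motifs given after them.
Psmb9 to Tap1, chr17:34187331-34187555, minus strand: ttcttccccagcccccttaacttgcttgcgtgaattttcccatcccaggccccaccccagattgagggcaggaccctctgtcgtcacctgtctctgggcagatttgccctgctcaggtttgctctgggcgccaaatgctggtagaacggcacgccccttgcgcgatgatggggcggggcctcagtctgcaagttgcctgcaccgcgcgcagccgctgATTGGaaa
Psmb8, chr17:34197945-34198194, plus strand: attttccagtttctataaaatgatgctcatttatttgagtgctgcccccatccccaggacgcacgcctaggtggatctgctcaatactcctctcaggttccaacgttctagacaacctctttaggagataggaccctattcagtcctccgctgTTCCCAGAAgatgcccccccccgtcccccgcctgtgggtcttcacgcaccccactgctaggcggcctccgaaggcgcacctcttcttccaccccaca
Psmb5, chr14:54617996-54618245, minus strand: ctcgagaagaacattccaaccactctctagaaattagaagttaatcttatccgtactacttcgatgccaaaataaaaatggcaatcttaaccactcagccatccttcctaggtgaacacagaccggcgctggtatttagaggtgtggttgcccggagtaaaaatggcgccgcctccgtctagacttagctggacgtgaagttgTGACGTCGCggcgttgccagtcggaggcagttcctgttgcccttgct

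These motifs were searched on both strands in windows from 250 bases before to 50 after each start, available for 41 of 49 members. TTCNNNGAA, the form of the GAS site of interferon gamma responses, matched in Psmb8, 97 bases before its start, and in no other of the 5 immunoproteasome genes. It matched 2 of the 36 other members (Psmd2 and Psmg1) and 8.38% of 10117 tested genes with a window. GAAA, any 2 bases and GAAA again, a core of interferon-stimulated response elements, matched Psme1 just after its start, 4 of the 36 others (Psmb3, Psmd4, Psmd9 and Psmg4) and 4.04% of tested genes. TGACNNNGC, a core of the element read by Nfe2l1 and Nfe2l2, matched 0 of the 5 and 6 of the 36, among them Psmb5 and Psmb6, against 16.9% of tested genes. CCAAT, the NF-Y box, matched Psmb9 (8 bases before its start, as ATTGG on the strand shown), 14 of the 36 and 43.4% of tested genes. A match is only a run of letters, and a window without one says nothing about a factor.

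No proteasome gene differed between the groups past the adjusted threshold. Of the 49 members, 47 had a mean of at least 0.5 FPKM and were tested, and 0 were higher and 0 lower in P.T.ATBx (limma, adjusted p under 0.05 over 12788 rows), against 0.845% of all rows called (0.461% higher and 0.383% lower). At an unadjusted p under 0.05 there were also 0 of the 47, against 13.6% of all rows. The smallest adjusted p was 0.37 for Psmb9 (limma). The 2 untested members encode tissue-restricted core subunits. Psmb11, of the thymic epithelium, reached 0.0167 FPKM at most and was listed at 0 in most libraries. Psma8, of the testis, reached 0.359 FPKM at most and was listed at 0 in P.T.ATBx 9.

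The 5 immunoproteasome genes all had negative log2 fold changes (P.T.ATBx minus Control, on the scale of log2(FPKM + 1)), none past the threshold, where 48.5% of all tested rows were negative. Their median was −0.068, beside 0.014 for the 42 other tested members and 0.003 for all tested rows. The sign stayed negative for each of the 5 in all 32 alternative fits, 20 of which left out only 1 library. The 5 genes varied together (median pairwise r 0.82, group means removed), so their signs are not separate observations. In Psmb8 and Psmb9, 10 of 10 values in P.T.ATBx were below the median of Control, as in 2.96% of tested rows, and in Psmb10, Psme1 and Psme2 it was 8 of 10, as 8 or more did in 18.1%. All 10 lay above that median in 0 of the 47 members, and in 3.41% of tested rows. Control and P.T.ATBx values overlapped in each of the 5.

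Psmb9 (Entrez 16912) encodes beta-1i, the induced subunit that replaces that of Psmb6. Its FPKM was 90.3 at the lowest, 127 at the median and 153 at the highest in Control, and 66.7, 102 and 127 in P.T.ATBx. Control 2 and Control 3 were the lowest of their group, and P.T.ATBx 2 lay below all other libraries, while the 5 highest values were all Control. The means were 122 ± 20.6 and 104 ± 19.2 FPKM (SD, n = 10 each), and P.T.ATBx was lower by a log2 fold change of −0.23 (limma SE 0.11, p = 0.0508, adjusted p = 0.37). Leaving out Control 2 gave −0.278 and leaving out P.T.ATBx 2 gave −0.164; over all such fits the adjusted p ran from 0.24 to 0.505 (limma). In the GENCODE annotation exons of Psmb9 and Tap1 overlap on opposite strands, and as use of strand in counting is not stated, reads there cannot be told apart. Psmb9 was also the most variable of the 47, with a within-group SD of 0.268 on the log2 scale.

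Psmb8 (Entrez 16913) encodes beta-5i, which replaces the product of Psmb5. It had the highest mean of all 49 members, at 342, 427 and 454 FPKM (lowest, median, highest) in Control, against 300, 383 and 425 in P.T.ATBx. The 7 highest Control libraries lay above the P.T.ATBx median, and Control 2, Control 3 and P.T.ATBx 2 were again lowest. Means were 412 ± 41.7 and 382 ± 38.5 FPKM (SD, n = 10 each), a change of −0.11 in log2 units (SE 0.07; limma adjusted p = 0.516). Leaving out P.T.ATBx 2 gave −0.069 and leaving out Control 2 gave −0.136, neither past the threshold.

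Psmb10 (Entrez 19171) encodes beta-2i, which replaces the product of Psmb7. Its FPKM was 171, 220 and 236 (lowest, median, highest) in Control, against 169, 201 and 225 in P.T.ATBx (log2 change −0.06, SE 0.06; limma adjusted p = 0.725). Without P.T.ATBx 2 it was −0.032 and without Control 3 it was −0.091. The groups shared nearly their whole range, and the 95% interval of the fold ran from 0.879 to 1.05.

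The PA28 genes had the following levels. Psme1 (Entrez 19186) ran over 218, 262 and 289 FPKM (lowest, median, highest) in Control, against 217, 246 and 272 in P.T.ATBx (log2 change −0.07, SE 0.06; limma adjusted p = 0.653). Psme2 (Entrez 19188) ran over 316, 352 and 413 FPKM and 301, 342 and 395 (log2 fold change −0.06, SE 0.05; limma adjusted p = 0.676). Here Control 1 and P.T.ATBx 4 were the highest of their groups and P.T.ATBx 10 was the lowest of all. Mice carry a near-identical copy of Psme2, Psme2b, so reads of the pair may not be separable. On leaving out Control 1, Psme2 had −0.036.

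**Figure D1:**
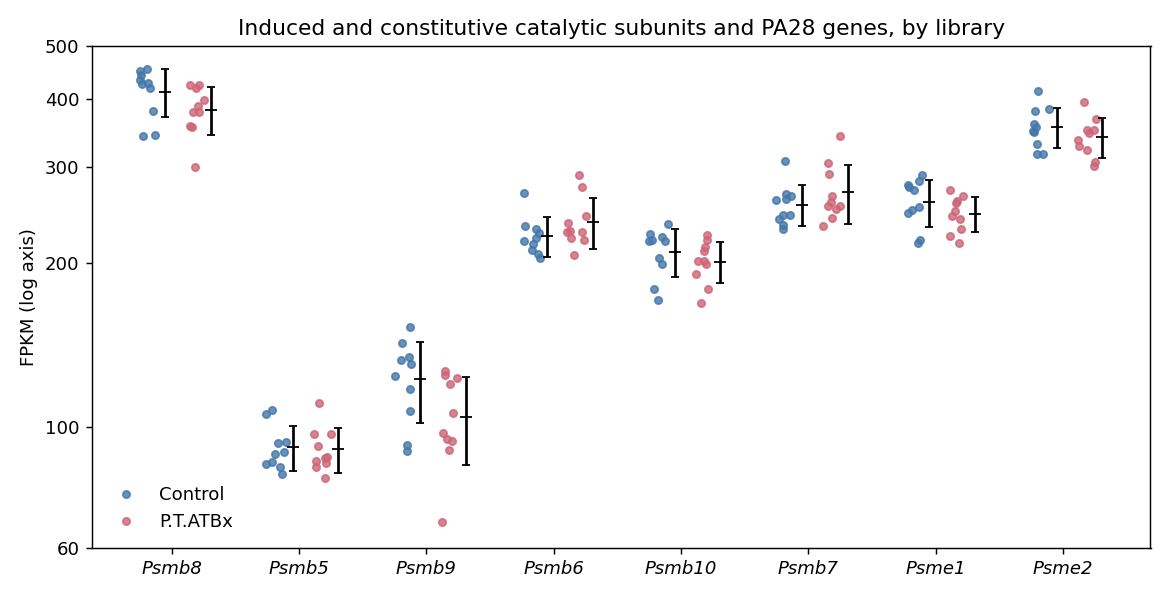
FPKM (log axis) of the 3 induced catalytic subunit genes, each beside the constitutive gene it replaces, and of Psme1 and Psme2, with 1 point per library (Control blue, P.T.ATBx red, n = 10 each) and black bars for mean ± SD. Psmb9 runs from 66.7 to 153 FPKM with overlapping groups, and Psmb5, Psmb6 and Psmb7 overlap throughout.

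The constitutive catalytic genes had these levels. Psmb5 (Entrez 19173), for the chymotrypsin-like site, ran over 81.9, 89.5 and 108 FPKM (lowest, median, highest) in Control, against 80.5, 87.8 and 110 in P.T.ATBx (log2 change −0.01, adjusted p = 0.957, limma). Psmb6 (Entrez 19175), for the caspase-like site, ran over 204, 220 and 269 FPKM and 206, 228 and 289 (log2 change 0.08, adjusted p = 0.577, limma). Psmb7 (Entrez 19177), for the trypsin-like site, ran over 231, 253 and 307 FPKM and 233, 256 and 342 (log2 change 0.07, adjusted p = 0.683, limma). For Psmb6, 9 of 10 values in P.T.ATBx were above the median of Control, and its highest values in each group came from Control 1 and P.T.ATBx 1.

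The ratio of an induced to its constitutive gene within a library does not depend on a factor that scales the whole library. Of such ratios, 3 were compared. Psmb6 and Psmb7 were highest in P.T.ATBx 1, P.T.ATBx 4 and Control 1. The part of library composition in the ratios was not tested. Psmb8/Psmb5 was 3.19, 4.82 and 5.24 (lowest, median, highest) in Control, against 3.09, 4.36 and 4.95 in P.T.ATBx, so the induced RNA exceeded the constitutive RNA per length in every library. Psmb9/Psmb6 was 0.402, 0.567 and 0.628 in Control, against 0.274, 0.447 and 0.612 in P.T.ATBx, below 1 throughout. Psmb10/Psmb7 was 0.645, 0.856 and 0.934 and then 0.523, 0.788 and 0.902. All 3 were lower on average in P.T.ATBx, and in all 3 the groups overlapped.

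By a two-sided permutation test on the log2 ratios (100000 resamples, adjusted by Benjamini-Hochberg over the 3 ratios), none passed. Psmb9/Psmb6 had means (± SD, n = 10 each) of 0.547 ± 0.0819 in Control, against 0.444 ± 0.0993 in P.T.ATBx, which is a log2 difference of −0.32 (SE 0.13, p = 0.0254, adjusted p = 0.0762), and 9 of 10 values in P.T.ATBx were below the median of Control. It passed when Control 2, Control 3 or P.T.ATBx 6 was left out (range of adjusted p 0.0255 to 0.0286), and had adjusted p = 0.151 at the most when another library was left out. In the limma fit with the ratio added as a row its adjusted p was 0.266. Without P.T.ATBx 1 and P.T.ATBx 4 it had −0.267 (permutation adjusted p = 0.205). Without Control 1 and Control 3 as well it had −0.312 (permutation adjusted p = 0.108). Psmb10/Psmb7 differed by −0.13 (SE 0.10, adjusted p = 0.322) and Psmb8/Psmb5 by −0.10 (SE 0.10, adjusted p = 0.37). Psmb8/Psmb5 had −0.047 without P.T.ATBx 2 and −0.151 without Control 3, and Psmb10/Psmb7 had −0.072 without P.T.ATBx 1, none past the threshold. Without both P.T.ATBx 1 and P.T.ATBx 4, Psmb8/Psmb5 had −0.053 and Psmb10/Psmb7 −0.059 (permutation adjusted p = 0.626 for each).

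**Figure D2:**
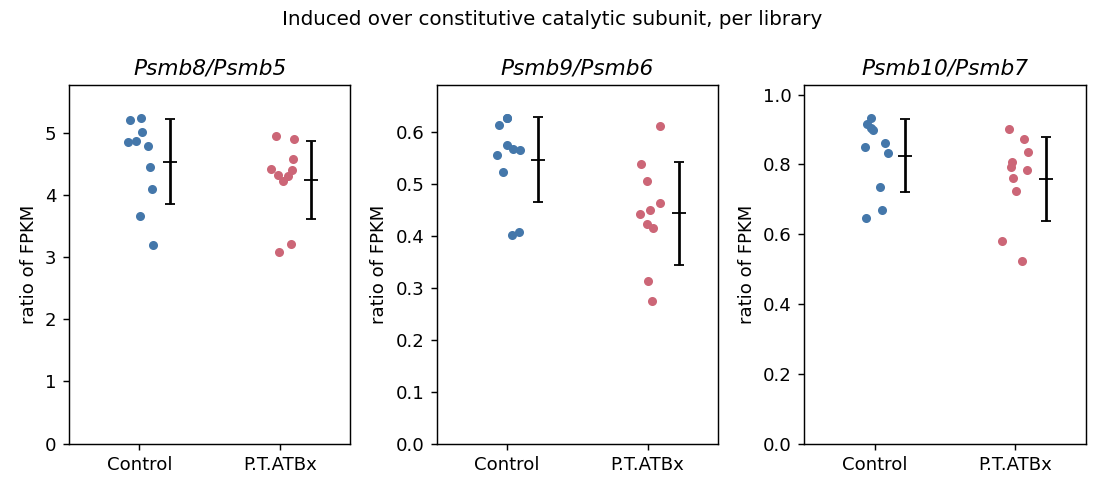
Ratio of FPKM, induced over constitutive catalytic subunit gene, per library (points), with mean ± SD (black bars, n = 10 per group) and each axis starting at 0. Psmb9/Psmb6 has a mean of 0.547 in Control, against 0.444 in P.T.ATBx, with overlapping points.

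No other gene of the 20S core passed. The 7 alpha ring genes Psma1 to Psma7, which form the gated ends of the barrel, had mean FPKM from 82.3 (Psma3) to 374 (Psma7) and log2 fold changes from −0.029 to 0.077. Psma1 had the largest of these (0.08, adjusted p = 0.493, limma), with 124, 132 and 153 FPKM (lowest, median, highest) in Control, against 126, 138 and 158 in P.T.ATBx. Its means were 133 ± 8.71 and 140 ± 10.7 FPKM (SD, n = 10 each), and the highest Control value, from Control 1, exceeded most P.T.ATBx values. The 4 beta genes without a protease site, Psmb1 to Psmb4, lay within 243 to 254 FPKM on average, with log2 fold changes from −0.008 to 0.073. Psmb1 ran over 211, 231 and 281 FPKM, against 226, 242 and 295 (log2 fold change 0.07, adjusted p = 0.603, limma), and 9 of 10 values in P.T.ATBx were above the median of Control.

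No gene of the 19S cap passed, and the median within-group SD of the 17 cap genes was 0.086 on the log2 scale, beside 0.133 for the 14 constitutive core genes. The 6 ATPase genes Psmc1 to Psmc6 had mean FPKM from 97.0 to 158 and log2 fold changes from −0.065 to 0.059. Psmc2 had the smallest p among the members with a negative value outside the 5, at 110, 117 and 126 FPKM (lowest, median, highest) in Control, against 101, 112 and 124 in P.T.ATBx (log2 change −0.06, adjusted p = 0.492, limma). For Psmc2, 8 of 10 values in P.T.ATBx were below the median of Control, and the ranges overlapped. The 11 non-ATPase genes had log2 fold changes from −0.054 to 0.091. Psmd14, the deubiquitinase of the lid, was at the upper end, with 135, 149 and 192 FPKM in Control, against 139, 153 and 205 in P.T.ATBx (adjusted p = 0.61, limma). Psmd2, a scaffold subunit, was at the lower end, with 135, 159 and 169 FPKM, against 140, 152 and 169 (adjusted p = 0.634, limma). Control 1 held both the highest Control value of Psmd14 and the lowest of Psmd2. Psmd7, a lid subunit, had 100, 106 and 119 FPKM, against 93.7, 102 and 118 (log2 fold change −0.05, adjusted p = 0.71, limma).

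No assembly factor or other regulator passed. The 19S chaperone genes Psmd5, Psmd9 and Psmd10 had log2 fold changes from 0.065 to 0.089, and the 20S chaperone genes Psmg1 to Psmg4 from −0.069 to 0.036. Psmd5 ran over 38.4, 45.0 and 49.9 FPKM (lowest, median, highest) in Control, against 42.3, 46.9 and 53.0 in P.T.ATBx (log2 change 0.06, adjusted p = 0.619, limma). Psmg3 had the lowest fold change of the chaperones (−0.07, adjusted p = 0.696, limma), with 26.0, 28.0 and 35.6 FPKM, against 24.4, 28.5 and 34.5, so its median was the higher one in P.T.ATBx while its mean was lower. Psme3, which encodes the nuclear cap PA28 gamma, had 55.0, 57.6 and 62.7 FPKM (lowest, median, highest), against 54.8, 60.9 and 62.5 (log2 fold change 0.05, adjusted p = 0.533, limma) and the smallest within-group SD of all 47, 0.0596. Psme4, for the cap PA200, had 0.01, and Psmf1, for the inhibitor PI31, was lowest in level of the tested members, at 10.98 ± 0.528 and 10.87 ± 0.562 FPKM (SD, n = 10 each). Psmc3ip fits the name rule only: it encodes a cofactor of meiotic recombination, not a proteasome subunit, and had 11.8, 14.01 and 16.7 FPKM, against 10.9, 13.5 and 18.2 (log2 fold change −0.07, adjusted p = 0.731, limma).

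Among the 42 tested members outside the 5, 29 were positive, but 16 were without P.T.ATBx 1 and P.T.ATBx 4 and 21 without Control 9, so no direction held for them. The 95% intervals of their folds together ran from 0.864 to 1.18, and those of the 5 immunoproteasome genes from 0.724 (Psmb9) to 1.05.

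**Figure D3:**
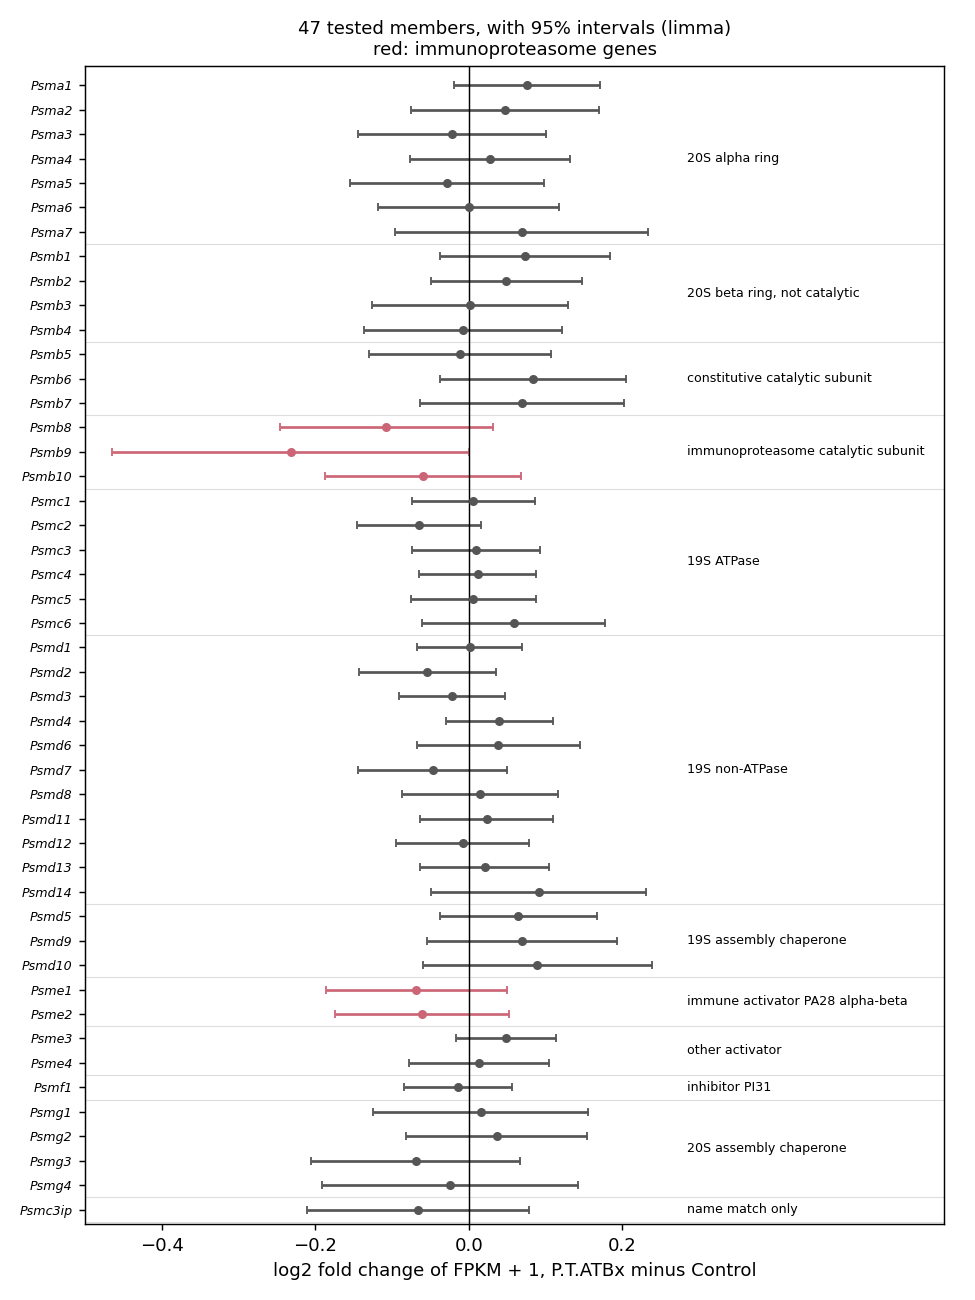
Log2 fold change of FPKM + 1 (P.T.ATBx minus Control) for the 47 tested members by role, with 95% intervals from limma (n = 10 per group); immunoproteasome genes are red. All 5 red points are below 0, from −0.232 to −0.059, and every interval includes 0.

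The induced genes varied together from library to library, within both groups. Psmb8 and Psmb9 had r = 0.94 (Spearman's rho 0.915, permutation adjusted p = 0.0013 and 0.00492) over the 10 Control libraries, and r = 0.938 (rho 0.83, adjusted p = 0.00135 and 0.0102) over the 10 P.T.ATBx libraries. Psmb8 and Psmb10 had r = 0.95 and 0.96 (rho 0.842 and 0.976, permutation adjusted p of r = 0.0013 and 0.00036). Without the 2 libraries farthest from the median of Psmb8, these 4 values of r were 0.795, 0.823, 0.791 and 0.938. Psme1 (r = 0.926 and 0.655, rho 0.83 and 0.697) and Psme2 (r = 0.839 and 0.72, rho 0.903 and 0.661) followed Psmb8 as well, with permutation adjusted p of r from 0.0013 to 0.0392, though rho of Psme2 in P.T.ATBx did not pass (permutation adjusted p = 0.061). Psmb5, whose product that of Psmb8 replaces, gave no relation past the threshold: r = −0.372 in Control and −0.317 in P.T.ATBx (rho −0.139 and −0.248, permutation adjusted p of r = 0.301 and 0.361), and the Control value turned to 0.296 without Control 2 and Control 3. In all, 18 relations were computed, 9 in each group, with raw permutation p of r from 2e-05 to 0.361, and adjusted together.

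By Pearson's r, relations of Psmb8 to interferon pathway genes were past the threshold in both groups, but in Control they rested on a pair of libraries. In P.T.ATBx, r was 0.897 with Irf1 (rho 0.867) and 0.794 with Tap1 (rho 0.842), with permutation adjusted p of r = 0.0013 and 0.0108. Without P.T.ATBx 2 and P.T.ATBx 5, r was 0.833 and 0.677, which were not tested. In Control, r was 0.69 with Irf1 (rho 0.576) and 0.816 with Tap1 (rho 0.685), with permutation adjusted p of r = 0.0299 and 0.0128 and of rho = 0.0998 and 0.0517, so rho did not pass. Without Control 2 and Control 3 they came to 0.092 and 0.281. Ptprc, the pan-leukocyte gene, had r = 0.784 in Control, against 0.802 in P.T.ATBx (rho 0.588 and 0.782, permutation adjusted p of r = 0.013 and 0.0108, of rho = 0.0998 and 0.0194), and 0.255 and 0.453 without the farthest 2. The summed leukocyte markers were lowest in P.T.ATBx 2 (137), P.T.ATBx 1 (158), Control 2 (161) and Control 3 (171), the libraries lowest in Psmb8. The part of leukocyte content in the relations was not tested. With Ptprc as a covariate, Psmb9 had adjusted p = 0.148 (limma) and 0 members passed.

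The constitutive 20S genes varied together, and largely apart from the immunoproteasome genes, though less so in Control. After the group means were removed, the 14 constitutive core genes had a median pairwise r of 0.85 over 20 libraries, the 5 immunoproteasome genes 0.82, and pairs across these sets 0.13. These are descriptions over libraries that share processing and composition. By group, these medians were 0.89, 0.93 and 0.32 in Control, against 0.87, 0.72 and −0.01 in P.T.ATBx. Without the 4 libraries that lie farthest from the rest, the medians over both groups were 0.64, 0.86 and 0.06. Pairs of a core gene with a 19S gene had a median of 0.58, and 0.57 without these 4. The core was thus not a set apart from the cap genes. Psme1 and Psme2 had medians of 0.36 and 0.54 to the core genes, where Psmb8 had 0.03, Psmb9 0.11 and Psmb10 0.02. Without the same 4 libraries these came to 0.20 and 0.24, and to −0.04, −0.13 and −0.01. The mean log2(FPKM + 1) of the core genes was highest in Control 1 (7.87), P.T.ATBx 1 (7.86) and P.T.ATBx 4 (7.77) and at most 7.66 elsewhere. In these libraries the noncoding RNAs Rpph1 and Rmrp took 20.5%, 17.2% and 14.8% of summed FPKM, among 7.75% to 20.5% in all, and in Control 3, with a core mean of 7.62, they took 15.0%. Over 20 libraries this share had r = 0.69 with the core mean and 0.29 with the mean of the 5 immunoproteasome genes. The part of this share in the core means was not tested.

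**Figure D4:**
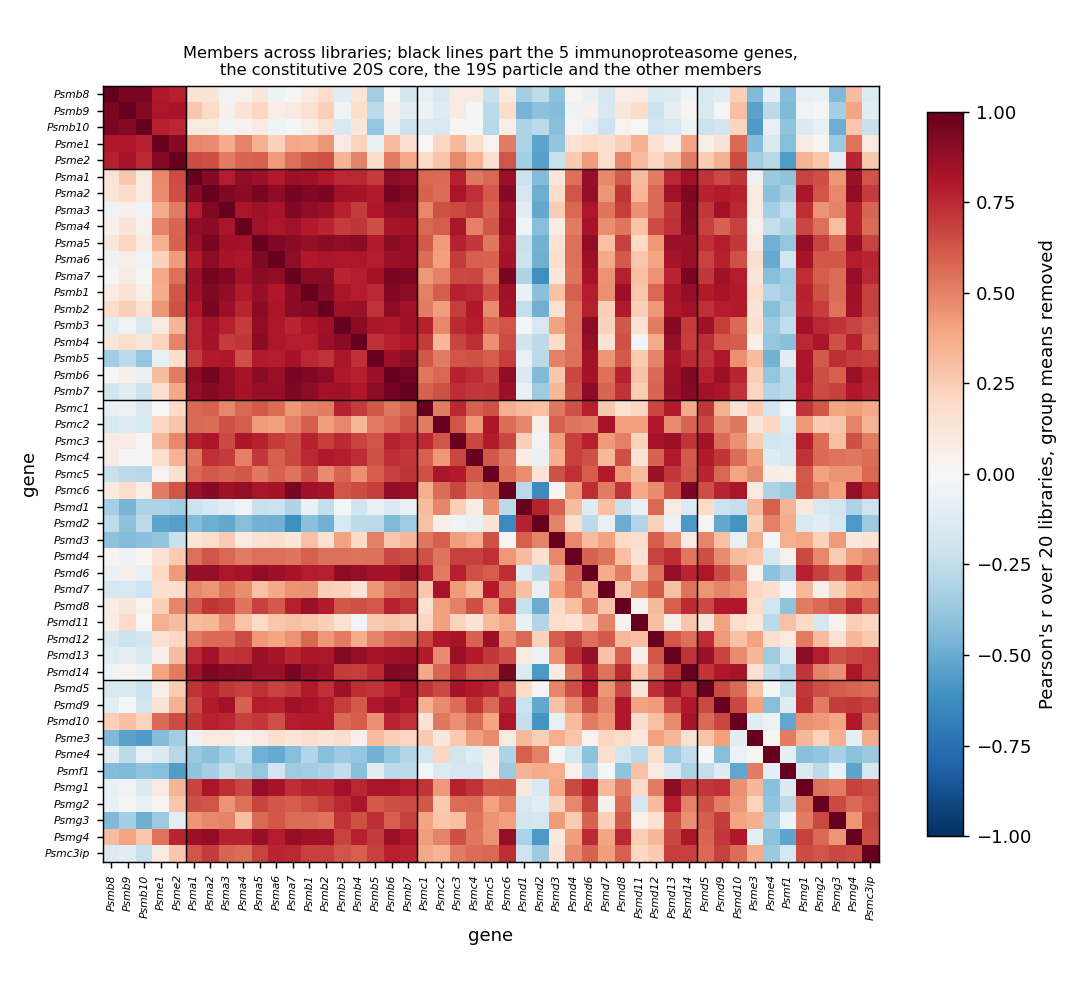
Pearson's r between tested members over 20 libraries after group means were removed (red positive, blue negative), with black lines between the 5 immunoproteasome genes, the 14 constitutive 20S genes, the 17 cap genes and the other members. The first 2 blocks on the diagonal have medians of 0.82 and 0.85, and the block between them 0.13.

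The 19S genes were mixed. Psmd14, Psmc6 and Psmd6 followed the core (median r to core genes 0.87, 0.85 and 0.85), as did the chaperone genes Psmg4 and Psmg1 (0.82 and 0.77). Without the 4 libraries named above these 5 medians were 0.62, 0.54, 0.67, 0.41 and 0.57. The scaffold gene Psmd2 (−0.44), its partner Psmd1 (−0.16), Psme4 (−0.39) and Psmf1 (−0.31) had negative medians. Without the same 4, Psmd2 and Psmd1 had 0.42 and 0.43, like Psmg4, so their split from Psmg4 rests on those libraries. Psme4 (0.08) and Psmf1 (−0.04) stayed below the 5 genes that followed the core. Transcripts of Psmd2, Psmd1, Psme4 and Psmf1 are 2961, 3112, 6491 and 2596 bases long. The median length was 1120 bases for the core genes and 1586 for the other members compared. The part of transcript length in these correlations was not tested.

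**Figure D5:**
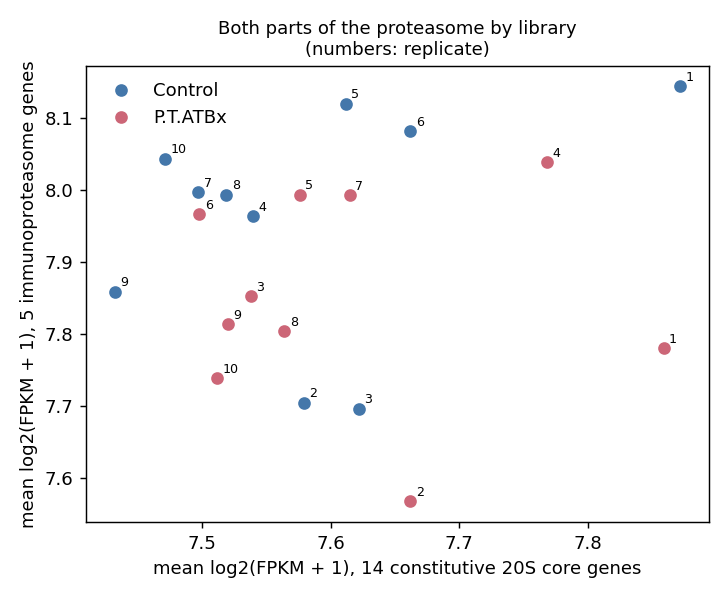
Mean log2(FPKM + 1) of the 14 constitutive 20S genes (x) and of the 5 immunoproteasome genes (y) per library, with replicate numbers beside the points (Control blue, P.T.ATBx red). Control 2, Control 3 and P.T.ATBx 2 are lowest on y, from 7.57 to 7.71, and Control 1 and P.T.ATBx 1 are highest on x.

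Over 20 libraries with group means removed, the 10 genes outside the proteasome most like the mean of the 5 (of 11899 with a mean of at least 1 FPKM, median r −0.022) were led by H2-M3, a non-classical MHC class I gene, at r = 0.96. AW112010 had 0.932, Ube2l6, the conjugating enzyme of the ubiquitin-like protein ISG15, 0.923, Nmi 0.922, and Xaf1 0.92. H2-Q7 (0.912), Klrk1, which encodes the receptor NKG2D (0.911), Fam26f (0.91), Lax1 (0.907) and Bcl2a1a (0.907) completed them, and H2-Q7 and Bcl2a1a share reads with close copies. None of the 10 passed the threshold between the groups (adjusted p from 0.343 to 0.974, limma). B2m, the class I light chain, was at rank 13 (r = 0.903), Ifng at 131 (0.802), Tap1 at 355 (0.704), Irf1 at 417 (0.684) and Nlrc5, the class I transactivator, at 970 (0.521).

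The genes that surround the proteasome in its pathway likewise gave no call: 0 of 57 tested passed in either direction (limma), against 0.845% of all rows. An unadjusted p under 0.05 was found for 8 of them, where 13.6% of all rows had one. Among 17 cofactors and shuttles the median log2 fold change was −0.023. Pomp, the maturation factor of the core, had 240 ± 21.6 and 229 ± 17.5 FPKM (adjusted p = 0.646, limma). The ubiquitin shuttle gene Ubqln2 had −0.11 (adjusted p = 0.381) and Ufd1l, a partner of the unfoldase VCP, 0.06 (adjusted p = 0.572, limma). Among 7 regulators of proteasome genes (median −0.024), Nfe2l1, the factor that raises proteasome genes when the proteasome is inhibited, had 76.8 ± 8.09 and 76.1 ± 4.32 FPKM, Maff −0.15 (adjusted p = 0.167), Ngly1 0.10 and Mafg −0.08 (limma). Among 7 ubiquitin genes (median −0.038), Ubd, an interferon-induced ubiquitin-like protein also called FAT10, had −0.46 (adjusted p = 0.46) and Ubb −0.04 (limma).

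Of 9 interferon gamma pathway genes 7 were negative, where 48.5% of all tested rows were, with a median of −0.137 and 0 past the threshold. Ifng had −0.42 (adjusted p = 0.349, limma), Nlrc5 −0.23 (adjusted p = 0.567) and Irf1 −0.14 (adjusted p = 0.587). Of 11 class I peptide loading genes 9 were negative, with a median of −0.131. Tapbp (−0.17, adjusted p = 0.274, limma), Tap1 (−0.28, adjusted p = 0.353) and Tapbpl (−0.17, adjusted p = 0.354) had the smallest p. Genes of a pathway can vary together, so the signs within either list are not separate observations. The 6 cytosolic peptidase genes, which trim proteasome products, had a median of −0.018, with Thop1 at −0.05, Blmh at −0.03 and Tpp2 at 0.05.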

How the data were processed

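RNA of MC38 tumour tissue was measured in 20 libraries, made with a stranded total RNA kit per the labels' protocols. The authors deposited 1 table of FPKM for 23402 genes, mapped to mm10 per the submitters' processing notes; the sources used here give no aligner, quantifier, annotation or use of strand. Exons of 14 of the 49 members overlap another gene in GENCODE M21 (GRCm38), 12 on the opposite strand, among them Psmb9 with Tap1. Read totals are unknown, and summed FPKM ran from 556770 to 752782. Values were analysed as log2(FPKM + 1), which understates the change of low genes. Rows with a mean of at least 0.5 FPKM (12788) entered a linear model of group alone in limma 3.58.1 (R 4.3.3), with robust, trended moderation, two-sided, adjusted by Benjamini-Hochberg at 0.05; the script was tested on simulated data. Permutation tests used SciPy 1.17.1 with 100000 resamples. The members and lists were chosen with earlier results of these data known. All members were counted within their roles, with full values for the 5 immunoproteasome and 3 constitutive catalytic genes and the 5 other members of smallest p in each direction; up to 3 genes of smallest p per pathway list, and Irf1, Nlrc5, Tap1, Pomp and Nfe2l1; some genes that this rule names are not reported here; other names were chosen after their values were seen. Paaf1 had no row by that symbol. Alternatives changed pseudocount, filter, scaling, moderation, weights, block, a Ptprc covariate and the libraries used.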

Additional observations from a re-analysis of the deposited data

Results flagged for a closer look

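In 17 cases a library lay far from the nearest other of its group of 10 for the size of the group's range; 104 groups (49 genes and 3 ratios in each treatment group) were examined, and chance flags about 1 in 20. Control 1 made 11 of them. It was highest of its group for Psma1 (153 FPKM, next 138), Psma5 (156), Psma6 (203), Psma7 (487, next 382), Psmb1 (281), Psmb6 (269), Psmb7 (307), Psmd14 (192), Psmd10 (30.1) and Psmg4 (82.9), and lowest for Psmd2 (135, next 155). P.T.ATBx 1 was highest for Psma6 (192) and Psmc3ip (18.2). P.T.ATBx 9 was lowest for Psmc1 (91.4) and listed at 0.0 for Psma8, P.T.ATBx 6 was lowest for Psmd4 (111) and P.T.ATBx 8 for Psmd11 (38.8). None of the 5 immunoproteasome genes or the 3 ratios was among them.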

How the results depend on the processing

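With 32 alternative fits, 0 members and 0 pathway genes passed (limma), and each of the 5 immunoproteasome genes stayed negative and below the threshold. Rows called over the whole table were 108, but 49 on the TPM scale and 306 with array weights. With all 20 libraries or the sets of outlying ones removed, the values of Psmb9 ran from −0.249 (without the 4 libraries farthest in composition, an alternative chosen after seeing the data) to −0.196 (array weights), with adjusted p from 0.148 to 0.53. Psmb9/Psmb6 passed with the replicate number as a block (log2 difference −0.319, adjusted p = 0.0293) and ran from −0.374 to −0.245 on leaving out 1 library. It did not pass without P.T.ATBx 1 and P.T.ATBx 4 (permutation adjusted p = 0.205) or without the 4 farthest libraries (permutation adjusted p = 0.108). Libraries of the same number in both groups had r over 0.1 in 5 of 10 cases, and 3 libraries correlated best with their own number. This does not settle whether the numbers pair the libraries. The block changed no call for the members, the pathway lists or the other 2 ratios, and it gave 124 rows called over the whole table. The relations were not fitted with it. Without those 4 libraries, the relations of Psmb8 to Irf1 (r = 0.733, adjusted p = 0.0617) in Control and to Psme1 (r = 0.651, adjusted p = 0.0762) in P.T.ATBx did not pass, with 8 libraries in each group. Psmb8 to Psmb5 in Control turned to 0.296 without the 2 farthest libraries. FPKM without read totals gives no counting error for a value.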

Other observations

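The constitutive 20S genes had their own neighbours, looked up after the relations among members were seen. Over 20 libraries with group means removed, the genes most like the mean of the 14 core genes included Rps3a1 (r = 0.979), Rps23 (0.973), Rpl32 (0.971), the ubiquitin ligase component Skp1a (0.969) and the cell cycle kinase subunit Cks2 (0.968). Rps27a, which encodes ubiquitin fused to a ribosomal protein (0.968), the prolyl isomerase gene Ppia (0.965), Rpl12 (0.964) and Rpl9 (0.963) followed. Rps3a1, Rps23, Rpl32, Rpl12 and Rpl9 encode ribosomal proteins. Pomp, the maturation factor of the core, had r = 0.802 to the mean of the core genes and 0.294 to the mean of the 5 immunoproteasome genes.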
